A study of Mus musculus with 2 samples.

Results

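The genes described here are 8 that encode transcription factors of the hepatocyte, the main cell type of the liver: Hnf4a, Foxa1, Foxa2, Foxa3, Cebpa, Cebpb, Onecut1 and Prox1. They were taken by name from the 32101 genes of the mm9 GENCODE annotation that are not pseudogenes, and the rule that picks their CpGs uses no methylation value. Reduced representation bisulfite sequencing (RRBS) was done on liver DNA of male mice aged 3 months, either wild type (WT) or homozygous for a Uhrf1 knock-in (KI) that changes a tyrosine and a proline to alanine in the tandem Tudor domain, with which UHRF1 binds methylated histone H3 lysine 9. DNA of 3 mice was pooled for each genotype into 1 library, so no spread between mice can be given, and every test below compares 2 libraries of reads, not 2 genotypes. The labels give the strain as C57BL/6, and for the KI library they have knock out as the genotype where the title has KI.

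UHRF1 recruits DNMT1, the methyltransferase that copies DNA methylation to the new strand after replication, and it recognises both hemimethylated CpGs and methylated H3K9. The 8 factors form a network that occupies each other's regulatory regions and those of the secreted and metabolic proteins of the liver. HNF4A is a nuclear receptor that holds hepatocyte identity, the FOXA proteins are forkhead factors that open chromatin in the embryonic liver, C/EBPα and C/EBPβ are leucine zipper factors of metabolism and of the acute phase and regeneration, ONECUT1 (HNF6) acts in both hepatocytes and bile ducts, and PROX1 is a homeodomain protein of the early hepatoblast. Hnf4a is transcribed from a downstream promoter, P1, in the adult liver, and from an upstream one, P2, in the fetal liver and the pancreas.

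The WT library listed 7231934 CpG cytosines and the KI library 6452685. A CpG was used when it had at least 5 reads in both, which left 2654195 shared CpGs with a median of 37 reads in each library. Their mean level was 45.6% in the WT library and 42.6% in the KI library (-2.99 percentage points). Changes are given as the KI level minus the WT level, in percentage points. The ± after a level or change is its counting error for the 1 library of each genotype. Where 1 read covers several CpGs, p-values are too small, and counting errors, intervals and limits over several CpGs are too narrow.

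The interval of each gene ran from 5 kb upstream of its 5′ end to its 3′ end. The 8 intervals held 1371 shared CpGs, which is 16.1% of their 8500 reference CpG cytosines. The share was lowest for Hnf4a, with 4.55% of its CpG cytosines, and highest for Cebpa, with 37.8%. The median coverage of the 1371 CpGs was 28 reads in WT and 33 in KI, and 806 had at least 20 reads in both. A further 180 CpGs reached 5 reads in WT alone and 210 in KI alone. MspI, the enzyme of RRBS, cuts at CCGG, so the data fall in patches around such sites, and 288 of the CpGs lay inside one.

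The sequences upstream of 3 start sites show what could be measured there, from the mm9 reference on the + strand, with CpGs in capitals. Hnf4a P1 (transcript Hnf4a-001, chr2:163372923) and P2 (chr2:163332544) are 40379 bp apart, and Cebpa is shown for contrast as a CpG-rich start.
Hnf4a P1 upstream, chr2:163372683-163372922: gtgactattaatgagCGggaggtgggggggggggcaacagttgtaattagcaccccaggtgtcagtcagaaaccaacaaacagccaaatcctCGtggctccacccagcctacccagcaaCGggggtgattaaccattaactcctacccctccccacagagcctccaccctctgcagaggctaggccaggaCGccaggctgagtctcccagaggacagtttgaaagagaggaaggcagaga
Hnf4a P2 upstream, chr2:163332294-163332543: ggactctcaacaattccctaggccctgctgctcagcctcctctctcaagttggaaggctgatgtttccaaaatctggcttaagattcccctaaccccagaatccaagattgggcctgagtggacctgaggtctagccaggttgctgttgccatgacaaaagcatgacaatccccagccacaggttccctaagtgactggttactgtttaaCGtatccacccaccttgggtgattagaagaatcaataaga
Cebpa upstream, chr7:35904062-35904311: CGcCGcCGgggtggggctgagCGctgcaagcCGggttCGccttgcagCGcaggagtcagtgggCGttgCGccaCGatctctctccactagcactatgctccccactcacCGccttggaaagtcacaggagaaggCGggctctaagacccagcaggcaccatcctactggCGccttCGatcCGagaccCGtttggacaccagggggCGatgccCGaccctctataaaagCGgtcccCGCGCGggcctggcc
The 250 bases before the start held 4 CpGs at P1, 1 at P2 and 22 at Cebpa. Over 52718 annotated starts the median was 4, 53.7% had as few as P1 or fewer, and 23.4% had as few as P2 or fewer. CCGG was found 0 times in the 250 bases before P1 or P2 and 2 times before Cebpa, and 38.2% of all starts had it there on either strand, since it reads the same on both. For Hnf4a, the measured CpGs at both starts lay downstream of the start, and the nearest shared CpG upstream of P1 was 6305 bp away.

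Most of the shared CpGs of these genes had little or no methylation in the WT library. The shared CpGs are 16.1% of the reference CpG cytosines, and nothing is shown here for the others. In WT, 958 of the 1371 (69.9%) were under 5%, against 39.4% of all shared CpGs. The mean level was 14.0% in WT and 13.3% in KI, and the change was -0.774 points, with a 95% counting interval of -1.27 to -0.283. By any amount, 359 CpGs (26.2%) were lower and 223 (16.3%) higher in KI, and 789 were equal. The shares over all shared CpGs were 45.9% lower and 24.6% higher.

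A single CpG was called when Fisher's exact test gave an adjusted p under 0.05 and the difference passed 25 points. By this rule 1 of the 1371 CpGs was lower in KI (0.0729%) and 0 were higher, where 1.09% of all shared CpGs were called lower and 0.0474% higher. The CpG lay 4607 bp upstream of Foxa1, at chr12:58651715 in a CCGG site. Its cytosine was methylated in 44 of 70 reads in WT and in 19 of 66 in KI, or 62.9% (Wilson 95% interval 51.1 to 73.2) against 28.8% (19.3 to 40.6), with an adjusted p of 0.00528. It was no longer called with the strands summed, where the CpGs called lower were 2 of Foxa3, at chr7:19599933 and chr7:19600004. Without CCGG sites it was left out, and 1 CpG of Foxa3, at chr7:19600005, was called lower. The patch around the Foxa1 CpG, centred 4564 bp upstream, averaged 66.9% in WT and 66.7% in KI over 20 cytosines. Of these, 11 were lower and 9 higher, and the patch was not called by the tests for patches below.

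Over whole intervals, Hnf4a stood apart from the other 7 genes in level. It averaged 52.6% ± 0.87 in WT and 47.2% ± 0.91 in KI over 87 CpGs, and the change was -5.43 ± 1.26 points. The WT levels of the others ran from 1.03% in Cebpa and 2.21% in Foxa2 over 2.41% in Cebpb and 11.2% in Onecut1 to 23.3% in Foxa1, 23.6% in Prox1 and 24.7% in Foxa3. In this order, neighbouring genes differed beyond their 95% counting error only between Cebpb and Onecut1, between Onecut1 and Foxa1, and between Foxa3 and Hnf4a.

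An interval, window or patch was called lower or higher when 2 tests, each adjusted over all regions of its kind, passed with the same sign. The first was Fisher's exact test on reads added over the region's CpGs, and the second a stratified (Cochran-Mantel-Haenszel) test that compared the libraries CpG by CpG. Hnf4a, Foxa1, Foxa2 and Prox1 were lower by both tests, and none was higher. That is 4 of 8 and 0 of 8, beside 33.2% and 1.11% of the 21174 gene intervals tested. For Foxa1 the change was -1.13 ± 0.62 points, from 23.3% to 22.1%. For Foxa2 and Prox1 the mean over CpGs went the other way from the tests: it was 2.21% in WT and 2.27% in KI for Foxa2 (+0.064 ± 0.76), and 23.6% and 24.1% for Prox1 (+0.520 ± 0.78). Weighted by reads, the change was -0.665 points for Foxa2 and -2.82 for Prox1.

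The 4 genes not called were Foxa3 (24.7% to 23.3%, -1.49 ± 0.89), Cebpa (1.03% to 0.879%, -0.154 ± 0.52), Cebpb (2.41% to 2.08%, -0.331 ± 0.44) and Onecut1 (11.2% to 10.4%, -0.873 ± 0.73). Weighted by reads, the change turned to +2.04 points for Foxa3, +0.0731 for Cebpb and +3.05 for Onecut1. The median change of the 8 intervals was -0.602 points, and that of all tested intervals was -0.970. By any amount 6 of the 8 were lower, as were 78.0% of all.

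**Figure D1:**
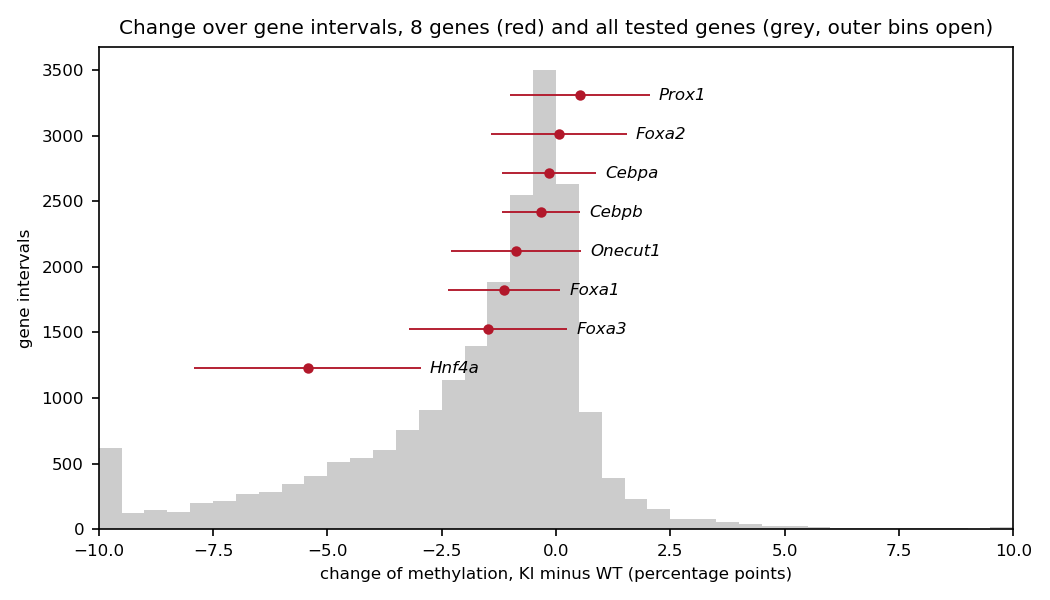
Change of mean methylation over gene intervals, KI minus WT in percentage points on the horizontal axis. Grey bars count all 21174 tested genes in steps of 0.5 points, with values beyond either end put in the outer bars, and red points are the 8 genes with 95% counting intervals, at heights that carry no value. Hnf4a lies at -5.43 and the other 7 between -1.49 and 0.520.

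Hnf4a had the largest change of the 8 gene intervals and data at 3 of its 4 starts. At P2, 14 shared CpGs lay in a single patch between 56 and 221 bp downstream of the start, at chr2:163332600-163332765, which the transcripts from this start annotate as coding exon, UTR and intron. The patch averaged 56.7% ± 2.0 in WT and 45.2% ± 2.5 in KI, and it fell by 11.5 points (95% interval -17.9 to -5.15). The adjusted p-values were 0.0193 and 0.00113 as a patch, and 0.0308 and 0.0025 as a window of 1 kb on each side of the start. In KI, 12 of the 14 cytosines were lower.

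The P2 patch was lower in KI on both strands. The 7 cytosines of the + strand, each read by 27 reads in WT and 17 in KI, averaged 46.6% and 35.3%. The 7 of the - strand, read by 35 to 41 reads in WT and 33 to 37 in KI, averaged 66.9% and 55.1%. Nearly the same reads covered all cytosines of a strand, so the 7 values of a strand are close to 1 set of reads. At each end of the patch, inside a CCGG, 1 strand was near 0 in both libraries: the - strand at 57 bp had 2.44% in WT and 2.70% in KI, and the + strand at 220 bp had 0 of 27 reads in WT, which allows up to 11.1%, and 1 of 17 in KI. CCGG ends are filled in when RRBS fragments are repaired, and a filled-in cytosine carries no methylation of the liver DNA. How the reads were trimmed is not given in the sources used here, and the part of filled-in bases in the levels was not tested. Without the CCGG cytosines the + strand had 53.3% and 40% and the - strand 74.6% and 60.9%, and the change of the patch was -13.6 points. With 1 CpG per 100 bp and strand it was -13.3 points and was no longer called (adjusted p 0.152 and 0.108).

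At P1, the start used in the adult liver, the only shared CpGs within 1 kb were 3 cytosines on the + strand, 141 to 165 bp downstream of the start, around the start codon. Their 30 bases, with CpGs in capitals, are shown because they are all that was measured there.
Hnf4a P1 patch, chr2:163373062-163373091, + strand: gcCGgcatggatatggcCGactacagCGct
The 8 reads of WT gave 5 methylated at each cytosine. The 7 reads of KI gave 2, 1 and 2. The means were 62.5% ± 9.95 and 23.8% ± 9.61, with adjusted p-values of 0.0694 and 0.0819, and the patch was not called. As a window it held fewer than the 5 CpGs asked for and was not tested.

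Farther along Hnf4a, the start of Hnf4a-202 (30211 bp from P2) had 0 shared CpGs. The start of Hnf4a-004 (43275 bp from P2) had 10. They averaged 33.7% ± 1.3 in WT and 28.6% ± 1.4 in KI, and the difference of -5.08 ± 1.92 passed neither test (adjusted p 0.150 and 0.118). Among patches with at least 3 CpGs, the most methylated, 55714 bp from P2, had 80.6% and 77.2%. The largest difference upwards among them was at 3207 bp, from 65.3% to 69.3%, and was not called. With the CpGs within 1 kb of a start left out, the mean change of Hnf4a was -2.41 points. The interval overlaps R3hdml, 0610008F07Rik and a U6 gene.

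**Figure D2:**
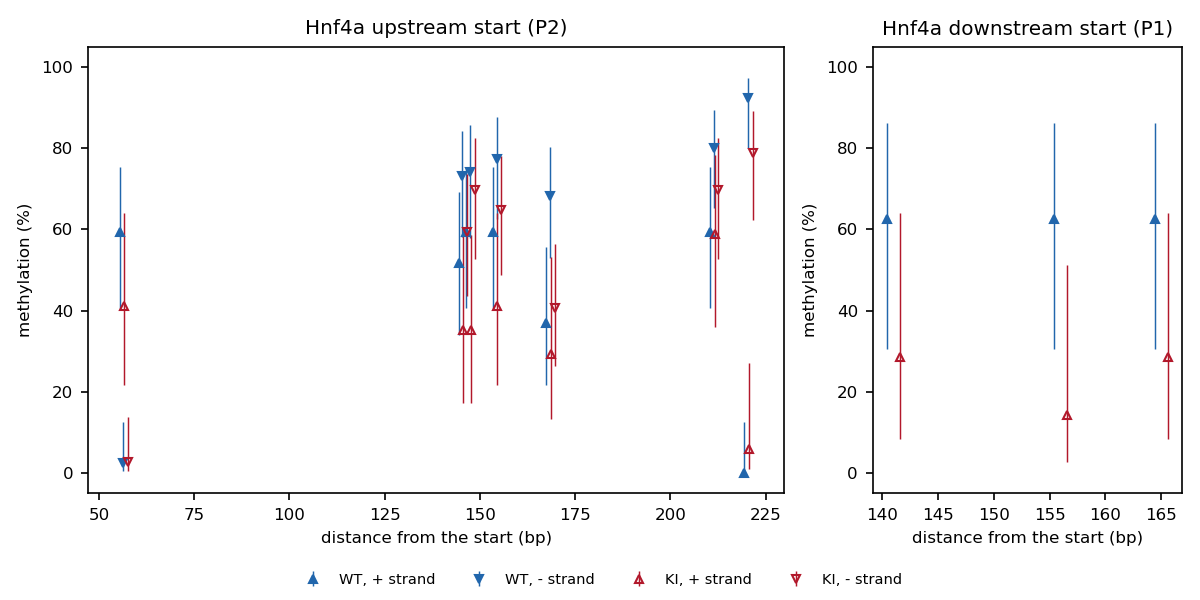
Methylation of single cytosines (percent, vertical axis) against distance downstream of the start in bp, at Hnf4a P2 (left, 14 cytosines) and P1 (right, 3 cytosines). Filled blue symbols are WT and open red symbols KI, upward triangles the + strand and downward ones the - strand, and bars are Wilson 95% intervals, with the libraries set slightly apart. At P2, KI lies below WT at 12 of 14 cytosines, and at P1 at all 3, with wide intervals.

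The 8 genes held 87 patches, runs of shared CpGs no more than 100 bp from the next, and 67 had the 3 CpGs asked for. The most methylated patch of a gene and its largest differences are given among these 67. Of these, 6 were lower in KI (8.96%) and 1 higher (1.49%), beside 18.9% lower and 0.664% higher of 202860 patches in the genome. The median change was -0.152 points over the 67 and -2.77 over all. By any amount, 39 were lower, 25 higher and 3 equal. Of the 67, 29 were under 5% in WT. Those of the 29 called lower were Foxa2 at 8 and 2143 bp upstream and Prox1 at 2596 bp upstream. Of all patches under 5%, 1.53% were called lower. The 20 patches over 50% in WT had a median change of -3.03, where all such patches had -3.86, and 15 of the 20 were lower. Those of the 20 called lower were Hnf4a P2 and Foxa3 at 9007 bp downstream. Of all patches over 50%, 22.3% were called lower.

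**Figure D3:**
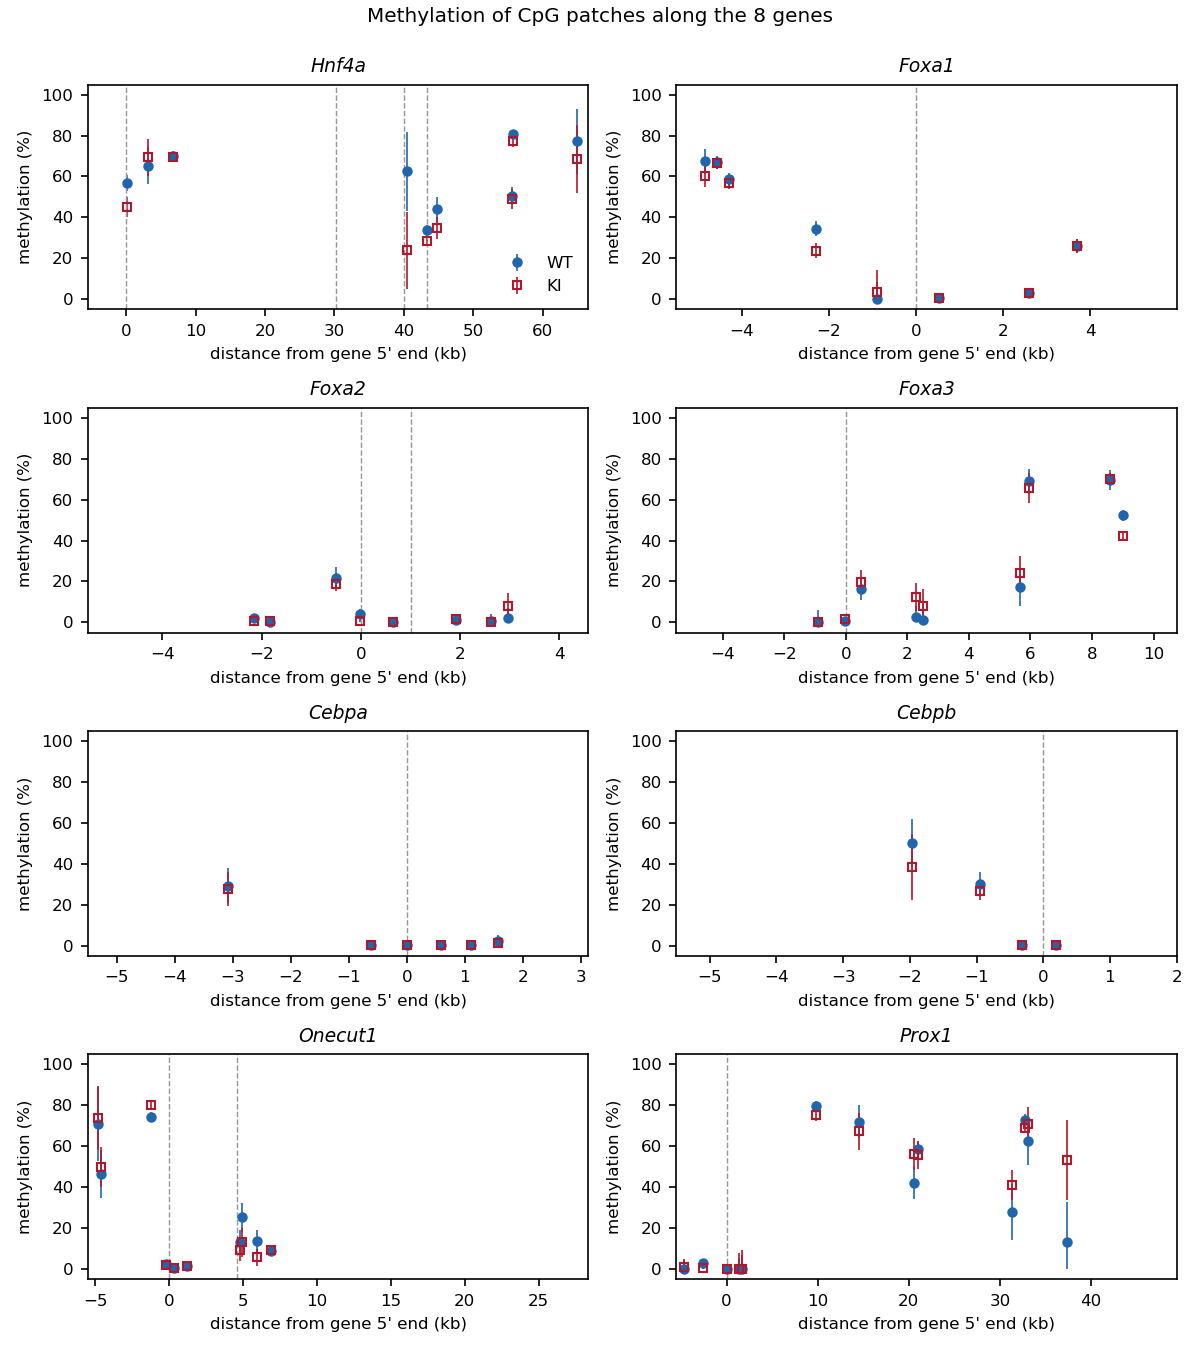
Methylation of the 67 tested patches (percent, vertical axis) against the distance of the patch centre from the gene's 5′ end in kb, 1 panel per gene. Filled blue circles are WT and open red squares KI, bars are 95% counting intervals, and dashed lines mark annotated starts. The patch nearest to the first start lies under 5% in every gene except Hnf4a, and the 7 called patches belong to Hnf4a, Foxa1, Foxa2, Foxa3 and Prox1.

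Foxa1 (chr12:58641618-58647108, - strand) was unmethylated at its start and methylated upstream. Within 1 kb of the start, 56 CpGs averaged 0.386% in WT and 0.546% in KI. The patch centred 2303 bp upstream fell from 34.4% to 23.7%, a change of -10.7 ± 2.65 points over 12 cytosines, of which 10 were lower (adjusted p 0.0389 and 0.00107). Its sequence on the strand of the gene, with CpGs in capitals, has only 6 CpGs in 163 bases, and the same 6 were read on both strands.
Foxa1 upstream patch, chr12:58649330-58649492, - strand: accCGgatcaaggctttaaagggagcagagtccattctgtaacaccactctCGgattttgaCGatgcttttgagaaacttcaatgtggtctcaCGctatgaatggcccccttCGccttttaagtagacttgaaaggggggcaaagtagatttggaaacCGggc
The + strand went from 28.0% to 15.7% and the - strand from 40.8% to 31.7%. Its call was lost without CCGG sites (-11.5 points, adjusted p 0.111 and 0.0114) and with 1 CpG per 100 bp and strand (-12.8 points, adjusted p 0.110 and 0.0614). The most methylated patch, 4836 bp upstream, had 67.3% and 60.3% and was not called. The largest difference upwards was 3.57 points in a patch 897 bp upstream, from 0 of 31 reads, which allows up to 9.68%, to 1 of 28. A coding exon patch 3705 bp downstream had 26.0% and 25.8% and was not called. With at least 20 reads per CpG it was called higher (15.9 points).

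Foxa2 (chr2:147868613-147872705, - strand) had the 1 called patch that was called under all 8 alternatives tried for patches. The patch across its first start, centred 8 bp upstream over the UTR and the sequence before it, went from 4.17% in WT to 0.431% in KI. The change was -3.74 ± 1.23 points over 22 cytosines, 13 of which were lower and 0 higher (adjusted p 6.2e-09 and 3.79e-08). Over all its reads, 5.43% (Wilson 95% interval 4.11 to 7.15) were methylated in WT and 0.670% (0.325 to 1.38) in KI. The reads came mostly from the - strand, 63 to 67 per cytosine in WT and 72 to 76 in KI, at 6.06% and 0.862%. The + strand had 12 to 19 reads per cytosine in WT and 20 to 22 in KI. Its level was 2.27% in WT, and 0 of 222 reads were methylated in KI. The 222 adds nearly the same reads over 11 cytosines, so the limit of 1.35% that it gives is too low. No single cytosine of the patch was called.

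A second Foxa2 patch, centred 2143 bp upstream, went from 2.20% to 0.738% (-1.46 ± 0.62 points, adjusted p 0.0295 and 0.0305).
Foxa2 upstream patch, chr2:147874773-147874923, - strand: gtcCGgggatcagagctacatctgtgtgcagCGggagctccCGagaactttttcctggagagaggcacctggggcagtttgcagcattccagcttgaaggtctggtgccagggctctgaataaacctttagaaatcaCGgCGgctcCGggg
Its call was lost without CCGG sites (-1.28 points), at equal reads (-1.48), with 1 CpG per 100 bp and strand (-1.39) and with a gap of 200 bp (-0.277), at adjusted p-values between 0.0505 and 0.226. The window of the first Foxa2 start averaged 4.86% and 2.64% and passed only the stratified test (adjusted p 0.203 and 1.06e-05). That of the second start, 1021 bp downstream, averaged 1.23% and 1.07% and was called lower (adjusted p 0.0176 and 0.00594), with a mean change of -0.160 ± 0.85. With windows of 500 bp on each side the first start was called (-3.71 points) and the second was not. Without CCGG sites and at equal reads both were called lower. The mean changes there were -2.55 and -2.32 points for the first and 0.0283 and -0.146 for the second. With strands summed the second was called lower with a mean change of 0.264. The first window holds the whole patch across the first start and the second a part of it. The most methylated Foxa2 patch, 497 bp upstream, had 21.9% and 18.8% and was not called, and the largest difference upwards was from 2.36% to 7.85% at 2979 bp downstream, in 135 and 125 reads, also not called.

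Foxa3 (chr7:19598631-19608887, - strand) held calls in both directions. Its start window was low, at 3.50% ± 0.88 in WT and 4.56% ± 0.69 in KI over 75 CpGs, and was not called. Near the start, a patch centred 215 bp downstream was called higher with at least 20 reads per CpG (6.17 points). Another, centred 141 bp downstream, was called higher without CCGG sites (3.69 points). In the coding part of the last exon, 9007 bp downstream, the patch at chr7:19599673-19600088 fell from 52.4% to 42.5%. The change was -9.97 ± 1.80 points over 40 cytosines (adjusted p 0.0199 and 0.00041). On the + strand 17 of 20 cytosines were lower, and the mean went from 56.7% to 44.1%. On the - strand 10 were lower and 10 higher, and it went from 48.2% to 40.8%. The call was lost with 1 CpG per 100 bp and strand (-5.56 points, adjusted p 0.645 and 0.662) and with a gap of 200 bp (-7.54 points, adjusted p 0.0965 and 0.000391).

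The 1 patch called higher in KI lay in an intron of Foxa3, 2289 bp from the 5′ end, and rested on few reads.
Foxa3 intron patch, chr7:19606530-19606667, - strand: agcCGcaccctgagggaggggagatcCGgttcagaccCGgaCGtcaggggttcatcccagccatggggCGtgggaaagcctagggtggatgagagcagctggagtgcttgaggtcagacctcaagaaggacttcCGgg
Its 6 cytosines, all on the - strand, averaged 2.56% in WT and 12.5% in KI, and the change was 9.94 ± 4.48 points (adjusted p 0.0226 and 0.0402). Over its reads, 2.25% of 89 were methylated in WT (Wilson 95% interval 0.618 to 7.83) and 13.7% of 102 in KI (8.36 to 21.7). Of the 6 cytosines, 3 were higher, 2 lower, and 1 had no methylated read in either library. The call was lost with at least 10 reads per CpG (4.49 points), without CCGG sites (8.76), at equal reads (8.68) and with 1 CpG per 100 bp and strand (5.13), at adjusted p-values of 0.0753 and above. The most methylated Foxa3 patch, 8592 bp downstream, had 69.6% and 70.1%. The interval overlaps Sympk.

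Cebpa (chr7:35904312-35906945, + strand) and Cebpb (chr2:167514415-167515918, + strand) had no call of any kind. In Cebpa 96.0% of the 253 shared CpGs were under 5% in WT, and in Cebpb 94.8% of 192. The Cebpa start window had 0.203% ± 0.47 in WT and 0.119% ± 0.37 in KI over 199 CpGs. That of Cebpb had 1.19% ± 0.30 and 1.16% ± 0.25 over 186. In the Cebpa window, with reads added over the 199 CpGs, 18 of 9247 were methylated in WT and 14 of 9891 in KI. Among the tested patches of both genes, levels above 5% were found only upstream of the start. Cebpa had 29.4% and 27.6% at 3079 bp upstream, its most methylated patch and the largest of its differences downwards, and its largest upwards was from 0.127% to 0.424% at 1109 bp downstream. Cebpb had 50% and 38.5% at 1963 bp upstream in 46 and 26 reads, its most methylated patch and the largest of its differences downwards, and its largest upwards was from 0.200% to 0.362% at 313 bp upstream. The Cebpb interval overlaps Tmem189.

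Onecut1 (chr9:74709728-74737591, + strand) had an unmethylated first start and no patch past both tests. The window of the first start averaged 2.22% ± 0.62 and 1.88% ± 0.49 over 79 CpGs. That of the second start, 4563 bp downstream, averaged 19.3% ± 2.3 and 11.1% ± 2.3 over 16, a difference of -8.18 ± 3.25 that was not called (adjusted p 0.113 and 0.160). The patch in it at 4950 bp had 25.3% and 12.9%, the gene's largest difference downwards. The most methylated patch was 1217 bp upstream, at 74.4% in WT and 80.2% in KI, which was also the largest difference upwards (5.76 ± 1.56). It passed the stratified test and missed the other (adjusted p 0.0589 and 0.00137). It was called higher with at least 20 reads per CpG (adjusted p 0.0466 and 0.00102) and without CCGG sites (0.029 and 0.0358). A patch in an intron at 5960 bp had 13.6% in WT and 5.66% in KI and was not called (adjusted p 0.0782 and 0.0618). Without CCGG sites that patch was called lower (-11.5 points). The interval overlaps Gm16551 and AC100600.1.

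Prox1 (chr1:191945660-191994559, - strand) went from unmethylated at its start to methylated in its body. The start window of 43 CpGs had 0.0705% in WT and 0.0629% in KI. The patch 2596 bp upstream went from 2.73% to 0.396%, a change of -2.34 ± 0.69 points over 34 cytosines, of which 15 were lower and 2 higher (adjusted p 3.18e-05 and 0.000522). It was seen on both strands, at 3.50% and 0.613% on the + strand and 1.97% and 0.178% on the - strand. With 1 CpG per 100 bp and strand it was -1.61 points and not called (adjusted p 0.188 and 0.268). The most methylated patch with at least 3 CpGs, 9867 bp downstream, had 79.8% in WT and 75.3% in KI and passed the stratified test only (adjusted p 0.361 and 0.021). The largest difference downwards among such patches was at 14550 bp, from 72.1% to 67.3% (-4.77 ± 6.10), and was not called. A patch in an intron at 20621 bp went the other way, from 42.1% to 56.1% (14.0 ± 5.63). It passed the stratified test only (adjusted p 0.0517 and 0.0297), and it was called higher with at least 10 reads per CpG (14.0 points) and with the strands summed (16.9). Upwards, the largest difference was from 13.3% to 53.3% in 3 CpGs at 37355 bp, read by 16 and 15 reads over all 3, and it was not called (adjusted p 0.0946 and 0.102). The interval overlaps Gm17566.

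Of the 13 starts of the 8 genes, 11 had the 5 CpGs asked for. In 8 of the 11 the window was under 5% in WT. The exceptions were Hnf4a P2, the Hnf4a-004 start and the second Onecut1 start. Over the 23839 start windows tested in the genome the median was 2.46%, and 57.1% were under 5%. The windows of Hnf4a P2 and of the second Foxa2 start were called lower and 0 were called higher, which is 2 of 11 (18.2%) beside 7.68% lower and 1.23% higher of all windows. Of all windows over 50% in WT, as Hnf4a P2 was, 15.9% were called lower, and of those under 5%, 1.73%.

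**Figure D4:**
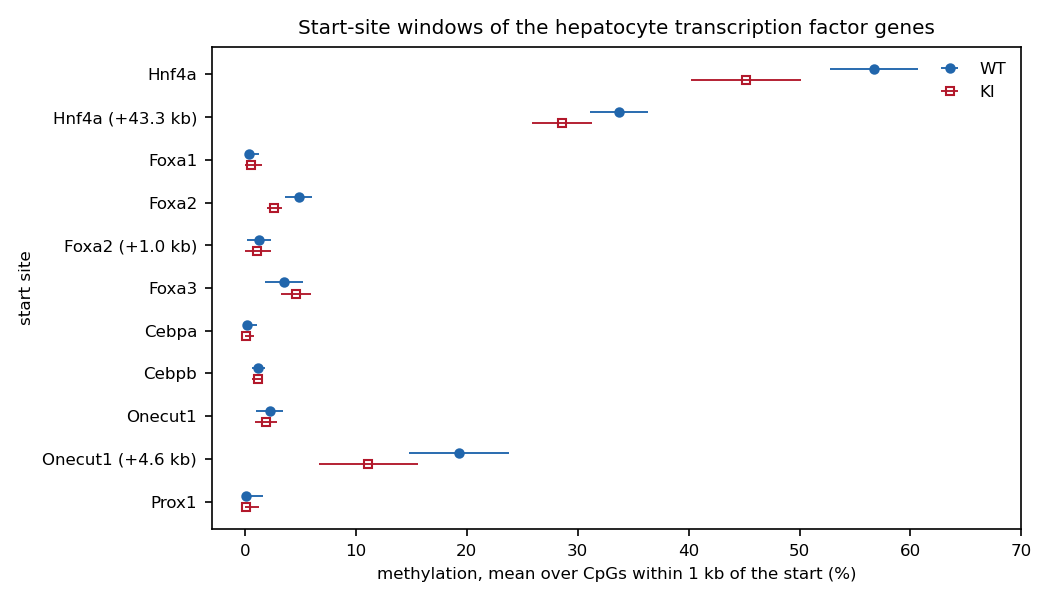
Mean methylation (percent, horizontal axis) over the shared CpGs within 1 kb of each of the 11 tested starts, with the distance from the gene's 5′ end given for later starts. Filled blue circles are WT, open red squares KI, and bars are 95% counting intervals cut at 0. Hnf4a P2 and the start 43.3 kb downstream of it, and the second Onecut1 start, lie above 10%, and the other 8 below 5% in both libraries.

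The CpGs were also set out by their place and level. The 748 within 1 kb of a start averaged 3.46% and 2.81%, a change of -0.647 ± 0.278 points. Those of all gene intervals changed by -0.510, from a higher WT level of 11.6%. The 623 farther away averaged 26.7% and 25.8%, a change of -0.927 ± 0.439. All such CpGs changed by -2.89, from a higher WT level of 59.5%. By the mean of both libraries, the 178 CpGs between 20% and 70% changed by -4.03 ± 1.17 points, from 44.5% to 40.5%, and the 112 of at least 70% by -0.617 ± 1.02, from 86.4% to 85.8%. All gene intervals had -6.41 and -2.83 in these classes, and -0.239 under 20%, where the 1081 CpGs of the 8 genes had -0.255. The difference between the 8 genes and the rest was not tested.

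A list of 32 other liver transcription factors, such as Gata6 and Nr2f6, had 26 gene start windows with data, and 22 of these were under 5% in WT. Of the 26, 1 was lower and 0 were higher, beside the 7.68% and 1.23% of all start windows. It was Rxra, the heterodimer partner of many nuclear receptors, at 0.766% in WT and 0 of 2009 reads in KI (adjusted p 0.00113 and 0.0116). The 2009 reads are added over 112 CpGs, so the limit of 0.149% that they give is too low where 1 read covers several. Of 20 target genes of these factors, only 6 had a tested window, with a median of 27.4% in WT, and 4 were lower and 0 higher. Of all tested windows 7.68% were lower, but those of the targets were more methylated than the median window of 2.46%, and nothing particular to the targets was tested. The 4 were Apob, the structural protein of very low density lipoprotein (43.7% to 31.1%), the clotting factor genes F2 (33.9% to 29.1%) and F7 (17.9% to 12.8%), and Fgb, the fibrinogen β chain (39.6% to 26.0%). For the tissue, the start windows of 4 hepatocyte genes had a median of 36.7% in WT, of 3 blood and Kupffer cell genes 66.7%, of 2 endothelial genes 71.3%, of 4 stellate cell genes 22.2% and of 2 cholangiocyte genes 0.514%. Of these lists, 3, 1, 0, 0 and 0 windows were lower and 0 higher. The 1 of the blood and Kupffer cell genes was Cd3e, from 65.3% in WT to 48.5% in KI (-16.8 points, adjusted p 0.00125 and 0.000245). The 4 hepatocyte genes are all among the 6 targets above, and the 3 lower ones are Apob, F2 and Fgb again. Methylation of a mixed tissue does not tell the share of its cell types, and a different share of cell types in the pools cannot be told apart from a change within hepatocytes.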

How the data were processed

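Liver DNA of WT and KI mice was analysed by RRBS in 1 library per genotype, each from 3 pooled mice. Reads had been aligned to mm9 by the authors with Bismark (0.12.20 in the submitters' processing notes), who kept uniquely mapped reads and deposited, for each CpG cytosine, a coverage, which is a count of reads, and the percent of them with C. How reads were trimmed and whether duplicates were removed is not given in the sources used here, and intervals cover counting error only.

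Methylated reads were taken as coverage times percent, rounded. Before rounding they were whole for 100% of CpGs, within 0.005 percentage points of the coverage. Cytosines covered by 5 or more reads in each library were joined by position, the 2 strands kept apart. Strand, CCGG sites and sequences came from the mm9 genome, and genes from its GENCODE annotation. Levels are means over CpGs with equal weight.

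Fisher's exact test (two-sided) was used for single CpGs. Start windows (1 kb on each side, starts of a gene up to 500 bp apart joined, at least 5 CpGs), patches (gaps up to 100 bp, at least 3 CpGs) and gene intervals (at least 10 CpGs) were compared by the same test on reads added over their CpGs and by a stratified Cochran-Mantel-Haenszel test (1 stratum per CpG), with Benjamini-Hochberg adjustment over all such regions of the genome (scipy 1.17.1, numba 0.67.0). Adjusted p-values are given in the order Fisher, stratified. The procedures were tested on simulated counts drawn independently for each CpG. Such counts cannot show the effect of reads that cover several CpGs or of spread between mice. Besides all windows past the tests, the patches named are those past them and, per gene, the most methylated and those with the largest change in each direction. The patches Prox1 at 20621 bp, Foxa1 at 3705 bp downstream and 4564 bp upstream, and Foxa3 at 215 and 141 bp were added after their values were seen. So were Hnf4a at 44811 bp and Onecut1 at 5960 bp. The members and gene lists were chosen with earlier results of these data known. Of the 32 other factors, Cebpd is not in the annotation by that name. Alternatives were other coverage minimums, tests, gaps, windows and weights, strands summed, equal reads, no CCGG sites and 1 CpG per 100 bp and strand.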

Additional observations from a re-analysis of the deposited data

How the results depend on the processing

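The mean change over the 1371 CpGs stayed negative in all 6 alternatives, between -1.11 (at least 10 reads) and -0.224 points (strands summed). Single CpGs called lower were 2 with at least 10 reads, 2 with at least 20 and 2 with strands summed (without the Foxa1 CpG, which was also left out with the CCGG sites). With no minimum difference 1 CpG was called higher, at chr2:163339192 in Hnf4a (24.0 points). With 1 CpG per 100 bp and strand, 0 start windows, 2 gene intervals (Hnf4a and Foxa2) and 1 patch (Foxa2 across its start) were called lower, and 0 patches higher. This setting tests fewer CpGs and reads. The changes of Hnf4a P2 (-13.3) and the Foxa1 patch (-12.8) were no smaller in it, and those of Foxa3 in the last exon (-5.56) and Prox1 (-1.61) were. The cause of the other shifts was not tested. Gene intervals called lower were also 2 with at least 20 reads, 2 without CCGG sites and 2 at equal reads, Hnf4a and Foxa2 in each, and 1 (Onecut1) was called higher with at least 20 reads. Start windows called lower stayed at 2 with windows of 500 bp, with the first Foxa2 start in place of the second. They were 3 without CCGG sites, at equal reads and by the stratified test alone, with both Foxa2 starts called in each. Patches called higher were 3 with at least 20 reads, 2 without CCGG sites, 2 with strands summed, 0 at equal reads and 3 by the stratified test alone. In the same order up to equal reads, 0.872%, 1.23%, 0.864% and 0.523% of all patches were called higher, beside 0.664% in the main run. Called lower were 7, 6, 6 and 5 of the 8 genes' patches, and 25.8%, 27.8%, 21.6% and 16.2% of all. Such shares were not counted for single CpGs, windows and gene intervals in the alternatives, or for the stratified test alone. The sign of a gene's mean change turned for Foxa2 with at least 10 reads (-1.19), at least 20 (-1.43) and reads summed (-0.665), for Cebpb with reads summed (0.0731), for Foxa3 with reads summed (2.04), for Onecut1 with at least 20 reads (0.740) and reads summed (3.05), and for Prox1 with at least 10 reads (-1.14), at least 20 (-2.01) and reads summed (-2.82). No paired analysis was possible because each genotype has 1 library. Depth limits thinly read patches such as P1 of Hnf4a, with 8 reads per CpG in WT and 7 in KI.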
